A study of Mus musculus with 6 samples.

Results

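The NF-kB family in macrophages was followed through 10 genes. They are the 5 subunits Nfkb1, Nfkb2, Rel, Rela and Relb and 5 proteins of the IkB family, Nfkbia, Nfkbib, Nfkbie, Nfkbiz and Bcl3. A further gene of that family, Nfkbid, is not among the 10 and is given with the negative regulators. The 10 genes were taken by gene symbol from the lines of the 6 deposited expression files. These list 24304 symbols in all 6 libraries, and all 10 genes passed the filter on low values. The RNA-seq libraries came from bone marrow-derived macrophages (BMMs) of C57BL/6 mice at postnatal day 28, grown from isolated marrow monocytes with 50 ng/ml macrophage colony-stimulating factor for 7 days. For 24 h, 3 cultures were exposed to cartilage fragments at 5 per macrophage (stimulated), while 3 control cultures were left without. The fragments and the marrow came from the same mice. No source says that the cultures of a group came from separate animals, so the p-values measure the spread between these cultures, which may be technical.

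NF-kB is a dimer of Rel-domain proteins that binds DNA and drives inflammatory genes. Rela, Rel and Relb carry a transactivation domain, whereas Nfkb1 and Nfkb2 are made as precursors that are processed into DNA-binding subunits without one. The classical IkB proteins, encoded by Nfkbia, Nfkbib and Nfkbie, hold dimers in the cytoplasm until IkB kinase marks them for degradation. Nfkbiz and Bcl3 encode atypical IkB proteins that act in the nucleus, where Bcl3 partners dimers of the processed Nfkb1 and Nfkb2 products. In macrophages, several of these genes are known targets of NF-kB themselves, so the family forms feedback loops.

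The level of a gene was its summed FPKM, fragments per kilobase of transcript and per 1000000 fragments sequenced. The deposited values were made by Cufflinks, which also assembled transcripts in each library and listed them with no gene symbol. Such transcripts held 15.8% to 20.0% of all FPKM, and at 4 of the 10 genes (Nfkb1, Nfkb2, Nfkbib and Bcl3) they lay in the same Cufflinks gene as the reference transcript. A count by symbol leaves them out. Levels are therefore given first for the lines that carry the symbol, and then with the assembled transcripts added, a choice made after the values had been seen. The coverage in the files corresponds to 699237 to 776371 fragments per library, and fragments per gene were estimated from it and scaled to a library total of 1000000 (scaled fragments).

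Groups were compared with limma across all genes whose mean reached 1 FPKM, and p-values were adjusted by Benjamini-Hochberg over all of them. By the symbol lines, 15 of 10348 genes were called higher with cartilage fragments (0.145%) and 4 lower (0.0387%), while 904 genes (8.74%) had all 3 stimulated libraries above all 3 controls. With assembled transcripts added to the FPKM, 32 of 10389 genes were called higher (0.308%) and 6 lower (0.0578%), and 940 (9.05%) lay above without overlap. In scaled fragments with assembled transcripts added, 140 genes were called higher (1.35%) and 76 lower (0.732%), and 958 (9.22%) lay above without overlap. Against this background, none of the 10 family genes was called in either FPKM fit, and 3 (Nfkb2, Nfkbie and Bcl3) were called higher in scaled fragments. At an unadjusted p under 0.05 in either direction stood 5 of the 10 in each fit, beside 675 of 10348, 955 of 10389 and 1168 of 10389 genes in all. They were Nfkb2, Nfkbia, Nfkbie and Bcl3 in every fit, with Nfkb1 by the symbol lines and Relb in the other two. None was called lower in any of them. In scaled fragments of the symbol lines, without assembled transcripts, none of the 10 was called in either direction.

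The cells carried macrophage transcripts in every library. The 7 macrophage markers summed to 29398 to 39159 FPKM in controls and 29965 to 40151 FPKM with cartilage fragments, and 6 of them were above 0 in every library. Lyz2 stood far above the others, so the sum says little about them. With assembled transcripts added, its scaled fragments had a mean log2 of 14.7 in both groups, with Csf1r next at 11.1. In scaled fragments with assembled transcripts added, 3 of the 7 were called higher, namely Adgre1 (log2 difference 0.58), Itgam (0.26) and Cd14 (0.64), and Csf1r, Cd68, Mertk and Lyz2 were not called. The 9 chondrocyte markers, which could come from the added fragments, summed to 1.54 to 4.22 FPKM in controls and 1.18 to 2.82 FPKM after stimulation, with Chad, Col9a1, Hapln1 and Matn3 at 0 in all 6 libraries. The 6 fibroblast markers summed to 152 to 169 FPKM in controls and 103 to 119 FPKM with fragments, so this sum moved with the groups. Of its 4 tested genes Col1a1 (-0.72) and Col1a2 (-0.41) were called lower in that fit, in which Nfkb2, Nfkbie and Bcl3 were called. Col3a1 (-0.72, limma adjusted p = 0.558) and Dcn (0.27, 0.937) were not called. Col1a1, Col1a2, Adgre1 and Cd14 stand in gene lists that the study drew from these libraries, so their direction is not independent. The part of both marker lists in the results was not tested. The 7 neutrophil markers listed in the files summed to 741 to 914 FPKM and 731 to 1104 FPKM, and the dendritic cell markers to at most 0.751 FPKM and 2.36 FPKM. All 7 lymphocyte and all 4 erythroid markers were at 0 throughout. In such bulk RNA, fewer cells of a type and less RNA per cell cannot be told apart.

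RefSeq promoters were examined for the κB consensus, the 10-base motif bound by NF-kB dimers, because several family genes are known NF-kB targets. The window of 300 bases runs from 250 bases before the start that RefSeq gives to 50 bases from it, on GRCm38.p6, and both strands were searched. For Rela that start lies 51 bases downstream of the one in the expression files, and for Rel 1 base downstream. Of the 10 genes, 7 had an entry and together had 9 windows. Nfkb1, Relb and Nfkbiz were not analysed here. A match was found in 5 of the 7 genes, in 7 of the 9 windows, and in 8.5% of all 32851 promoters of this length. The sequences of the 3 genes called in scaled fragments, of Nfkbia and Rel, which also held a match, and of Rela, which held none, are shown 5′ to 3′ on the strand of the gene, with matches in capitals.
Nfkb2, chr19:46304487-46304786, plus strand: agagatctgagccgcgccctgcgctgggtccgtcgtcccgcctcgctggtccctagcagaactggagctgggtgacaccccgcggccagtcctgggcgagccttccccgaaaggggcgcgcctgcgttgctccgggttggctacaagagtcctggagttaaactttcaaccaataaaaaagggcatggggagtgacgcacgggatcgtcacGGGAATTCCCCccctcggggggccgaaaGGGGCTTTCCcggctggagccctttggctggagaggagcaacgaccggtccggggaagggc
Nfkbie, chr17:45555450-45555749, plus strand: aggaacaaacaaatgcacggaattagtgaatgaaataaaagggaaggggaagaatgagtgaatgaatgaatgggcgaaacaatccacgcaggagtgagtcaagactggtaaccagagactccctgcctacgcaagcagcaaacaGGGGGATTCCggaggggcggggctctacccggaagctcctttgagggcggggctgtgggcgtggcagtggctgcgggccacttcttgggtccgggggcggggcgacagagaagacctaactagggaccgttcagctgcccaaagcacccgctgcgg
Bcl3, chr7:19822706-19823005, minus strand: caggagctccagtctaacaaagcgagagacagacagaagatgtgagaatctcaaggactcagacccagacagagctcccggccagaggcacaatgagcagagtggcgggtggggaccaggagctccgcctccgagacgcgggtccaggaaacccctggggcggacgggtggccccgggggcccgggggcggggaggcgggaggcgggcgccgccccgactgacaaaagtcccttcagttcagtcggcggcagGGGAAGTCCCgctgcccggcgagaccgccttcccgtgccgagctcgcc
Nfkbia, chr12:55492598-55492897, minus strand: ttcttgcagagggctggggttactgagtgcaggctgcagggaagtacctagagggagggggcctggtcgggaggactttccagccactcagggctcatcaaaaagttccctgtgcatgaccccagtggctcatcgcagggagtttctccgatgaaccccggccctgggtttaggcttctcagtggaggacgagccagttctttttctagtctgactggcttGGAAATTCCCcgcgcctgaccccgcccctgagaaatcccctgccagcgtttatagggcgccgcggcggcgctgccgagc
Rel, chr11:23770920-23771219, minus strand: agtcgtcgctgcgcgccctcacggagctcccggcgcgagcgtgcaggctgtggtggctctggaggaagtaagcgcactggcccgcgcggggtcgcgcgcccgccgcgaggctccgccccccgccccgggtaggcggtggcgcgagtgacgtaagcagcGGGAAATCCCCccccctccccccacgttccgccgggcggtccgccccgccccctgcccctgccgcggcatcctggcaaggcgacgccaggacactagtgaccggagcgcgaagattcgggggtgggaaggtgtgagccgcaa
Rela, chr19:5637291-5637590, plus strand: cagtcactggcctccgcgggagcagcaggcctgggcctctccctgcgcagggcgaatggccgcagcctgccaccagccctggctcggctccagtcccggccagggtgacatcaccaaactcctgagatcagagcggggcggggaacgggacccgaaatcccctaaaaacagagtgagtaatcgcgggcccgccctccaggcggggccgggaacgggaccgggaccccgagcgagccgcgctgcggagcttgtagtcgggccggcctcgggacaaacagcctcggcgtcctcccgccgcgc
In the Nfkb2 window the first run of capitals holds 2 matches that overlap, beginning 39 and 38 bases before the start, and a further match begins 11 bases before it. The other windows of Nfkb2, at its later starts, overlap each other and share the same match GGGACTTTCC, so that 1 site counts in 2 of the 7 windows, and 1 of them also holds GGAATGTCCC. The match of Nfkbia begins 29 bases and that of Nfkbie 106 bases before the start. In Rel 2 overlapping matches begin 92 and 91 bases before it, and in Bcl3 the match lies just downstream of the start. Nfkbib, like Rela, had none in this window. A match describes the letters of the window, and no binding was measured here.

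Among the subunits, Nfkb2 had the largest log2 difference in each of the 3 fits. Nfkb2 (chr19:46304737-46312090, mm10) encodes the precursor p100, which also acts as an inhibitor before it is processed. Its symbol lines gave 21.8, 23.8 and 30.0 FPKM in control macrophages and 41.9, 53.1 and 45.7 FPKM in stimulated macrophages. All stimulated libraries lay above all controls, with means of 25.2 ± 4.28 and 46.9 ± 5.65 FPKM (SD, n = 3 each). The log2 fold change was 0.90 ± 0.18 (SE), with a limma adjusted p of 0.306.

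Assembled transcripts at Nfkb2 held 11.3 FPKM in control 1, 6.98 FPKM in control 2 and 7.17 FPKM in stimulated 1. With them added, the controls came to 33.2, 30.8 and 30.0 FPKM and the stimulated libraries to 49.1, 53.1 and 45.7 FPKM. The controls thus lay closer together (31.3 ± 1.62 FPKM, SD, n = 3), the groups remained apart, and the difference became smaller, at 0.65 ± 0.13 on the log2 scale (limma adjusted p = 0.123). Over the 3 libraries of a group, 209 fragments were estimated in controls and 303 in stimulated cells, with exact Poisson intervals at 95% of 182 to 239 and 270 to 339, which cover counting error only. In scaled fragments of the symbol lines Nfkb2 was not called (log2 difference 0.90, limma adjusted p = 0.290). In scaled fragments with assembled transcripts added it was higher by 0.60 ± 0.13 on the log2 scale (limma adjusted p = 0.00996). That call held in 3 of the 6 fits that left out 1 library and was lost without control 2 (adjusted p = 0.0538), stimulated 1 (0.0532) or stimulated 2 (0.0950).

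**Figure D1:**
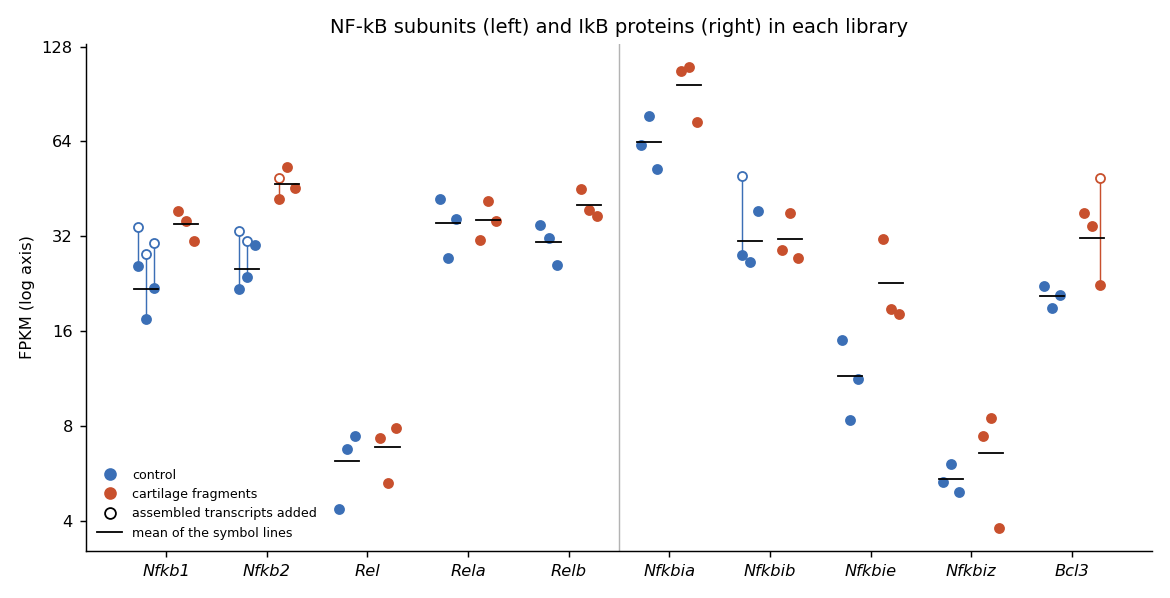
FPKM on a log axis for each of the 10 genes, with 1 point per library, controls in blue and stimulated macrophages in orange. Black lines mark the means of the symbol lines, and open points show the level with assembled transcripts added. Nfkb2, Relb, Nfkbie and Bcl3 lie above the controls without overlap by both measures, and the groups of Nfkb1 overlap once assembled transcripts are added.

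Nfkb1 (chr3:135584655-135691547) encodes the precursor of p50, the usual partner of p65. Its symbol lines read 25.7, 17.5 and 21.9 FPKM in controls and 38.4, 35.7 and 31.0 FPKM in stimulated cells, without overlap, a log2 difference of 0.70 ± 0.19 (limma adjusted p = 0.516). Assembled transcripts held a further 8.50, 10.7 and 8.57 FPKM in the 3 controls and none in the stimulated libraries. In 2 of the controls they spanned the whole gene, with 4122 and 3940 bases, and in control 3 they covered 1921 bases of it.

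Adding them brought the controls of Nfkb1 to 34.2, 28.1 and 30.5 FPKM, and control 1 then lay within the stimulated range. The log2 difference fell to 0.18 ± 0.15 (adjusted p = 0.771), and to 0.27 ± 0.14 in scaled fragments (adjusted p = 0.483). The separation of the symbol lines at Nfkb1 thus coincided with which libraries had an assembled transcript at this gene.

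Rela (chr19:5637490-5648130) encodes p65, the main activating subunit of the classical pathway. It measured 42.1, 27.2 and 36.4 FPKM in controls and 31.1, 41.4 and 35.8 FPKM in stimulated macrophages. The groups overlapped fully, and the mean was 35.2 ± 7.48 FPKM in controls and 36.1 ± 5.15 FPKM after stimulation (SD, n = 3 each). The log2 difference of 0.05 had a 95% interval of -0.47 to 0.57 (limma adjusted p = 0.965), and its sign depended on single libraries.

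Relb (chr7:19606222-19629438), the activating partner of processed Nfkb2 in the alternative pathway, gave 34.6, 31.6 and 26.0 FPKM in controls and 45.2, 38.7 and 37.1 FPKM after stimulation. Every stimulated library lay above every control, but the margin between the nearest pair was small. The log2 difference was 0.40 ± 0.16 by FPKM of the symbol lines (limma adjusted p = 0.777). In scaled fragments with assembled transcripts added at other genes it was 0.39 ± 0.17 (adjusted p = 0.377). No assembled transcript was listed at Relb.

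Rel (chr11:23741729-23770970) encodes c-Rel, a subunit best known in lymphoid cells. It read 4.37, 6.74 and 7.42 FPKM in controls and 7.34, 5.30 and 7.90 FPKM with cartilage fragments, and the groups overlapped. Rel rested on 33 estimated fragments in all controls together and 35 in all stimulated libraries, with exact Poisson intervals of 22.7 to 46.3 and 24.4 to 48.7. Its log2 difference of 0.16 had a 95% interval of -0.59 to 0.91, so a change of either sign was not resolved at this depth.

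Among the classical IkB genes, Nfkbie differed most and Nfkbib least. Nfkbia (chr12:55489409-55492647), which encodes IkBα, the inhibitor that is rapidly made again after NF-kB activation, was the most abundant gene of the family in both groups. It measured 62.4, 77.0 and 52.4 FPKM in controls and 107, 110 and 73.7 FPKM in stimulated macrophages. Stimulated 1 and 2 lay above all controls, while stimulated 3 lay below control 2. The log2 difference was 0.59 ± 0.22 (limma adjusted p = 0.716).

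Summed over libraries, Nfkbia had 200.0 estimated fragments in controls (exact Poisson interval 173 to 230) and 289 in stimulated cells (257 to 324). In scaled fragments of the symbol lines the log2 difference was 0.59 (limma adjusted p = 0.755). With assembled transcripts added at other genes it was 0.59 ± 0.17 with an adjusted p of 0.0867. Without stimulated 3 it was called (log2 difference 0.78, adjusted p = 0.0135), and without each of the other 5 libraries in turn it was not, with adjusted p up to 0.375.

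Nfkbie (chr17:45555700-45563168) encodes IkBε, another cytoplasmic inhibitor. The levels were 15.0, 8.39 and 11.3 FPKM in controls and 31.3, 18.8 and 18.1 FPKM in stimulated macrophages. The groups did not overlap, and stimulated 1 stood well above the other two stimulated libraries. The log2 difference by FPKM was 0.96 ± 0.32 (limma adjusted p = 0.660).

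In scaled fragments of the symbol lines Nfkbie was not called (log2 difference 0.99, limma adjusted p = 0.661). No assembled transcript was listed at Nfkbie, so its own values stayed the same when such transcripts were added at other genes. In that fit Nfkbie was higher by 0.99 ± 0.26 on the log2 scale (limma adjusted p = 0.0409). The call thus differed between 2 fits with the same values of this gene. It rested on 58 estimated fragments in controls (exact Poisson interval 44.0 to 75.0) and 111 in stimulated cells (91.3 to 134). The call held in 1 of the 6 fits that left out a library, the one without control 1 (adjusted p = 0.0295), and reached an adjusted p of 0.328 without stimulated 1. Cufflinks placed all fragments of a library on 1 of the 2 listed transcripts, NM_001304956 (2369 bases) in controls 1 and 3 and NM_008690 (2437 bases) in control 2 and all 3 stimulated libraries. The 2 transcripts share their ends and differ little in length, so the sum over both was used.

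Nfkbib (chr7:28758251-28766644), which encodes IkBβ, gave 27.9, 26.6 and 38.6 FPKM in controls and 29.0, 37.8 and 27.4 FPKM in stimulated cells, with full overlap. An assembled transcript of 924 bases held a further 21.7 FPKM in control 1 alone. The log2 difference was 0.02 by the symbol lines (95% interval -0.51 to 0.55), -0.25 with that transcript added (-0.82 to 0.31) and -0.13 in scaled fragments (-0.61 to 0.34). Its main transcript carries a low-data status of Cufflinks in 4 of the 6 libraries, and without transcripts of such a status the log2 difference was 2.00, with an interval of -3.22 to 7.21. Nfkbib was the single gene of the 10 whose sign changed between the fit by the symbol lines and the 2 with assembled transcripts added.

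Of the atypical IkB genes, Bcl3 lay higher in stimulated macrophages, and Nfkbiz was low in both groups. The symbol line of Bcl3 (chr7:19808462-19822755) gave 22.3, 18.9 and 20.8 FPKM in controls and 37.9, 34.4 and 22.5 FPKM in stimulated cells. In FPKM the groups touched without overlapping, since stimulated 3 barely exceeded control 1. In scaled fragments of the symbol line they overlapped, at 36.3 in stimulated 3 and 36.4 in control 1. They also overlapped in FPKM with equal library totals and with quantile normalization. The log2 difference was 0.58 ± 0.23 (limma adjusted p = 0.761).

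In stimulated 3 an assembled transcript of 1439 bases (chr7:19808462-19812590), at the 3′ end of Bcl3, held 26.6 FPKM, estimated as 22.6 fragments. With it added, Bcl3 reached 49.1 FPKM in that library, the highest of the 6. The group means became 20.7 ± 1.72 and 40.5 ± 7.66 FPKM (SD, n = 3 each), and the log2 difference 0.95 ± 0.18 (limma adjusted p = 0.103).

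In scaled fragments of the symbol line Bcl3 was not called (log2 difference 0.57, limma adjusted p = 0.784). In scaled fragments with assembled transcripts added it was higher by 0.88 ± 0.20 on the log2 scale (limma adjusted p = 0.0121). Its estimated fragments were 77 in controls (exact Poisson interval 60.8 to 96.2) and 135 in stimulated cells (113 to 160). The call held in 3 of the 6 fits that left out a library, and was lost without control 2 (adjusted p = 0.0666), stimulated 1 (0.0644) or stimulated 3 (0.0799). Bcl3 and Nfkbia stand in gene lists that the study drew from these same libraries, so their direction here is not independent of that choice.

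Nfkbiz (chr16:55811377-55838641), which encodes a nuclear IkB protein needed for some secondary response genes, gave 5.32, 6.07 and 4.94 FPKM in controls and 7.45, 8.47 and 3.80 FPKM with fragments. The stimulated libraries held both the highest and the lowest value of the 6. The log2 difference of 0.19 had a 95% interval of -0.70 to 1.09, and 41 and 48 fragments lay behind the 2 groups. Cufflinks placed the fragments of Nfkbiz on NM_001159394 in 3 libraries and on NM_001159395 in the other 3, with both groups in each set.

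**Figure D2:**
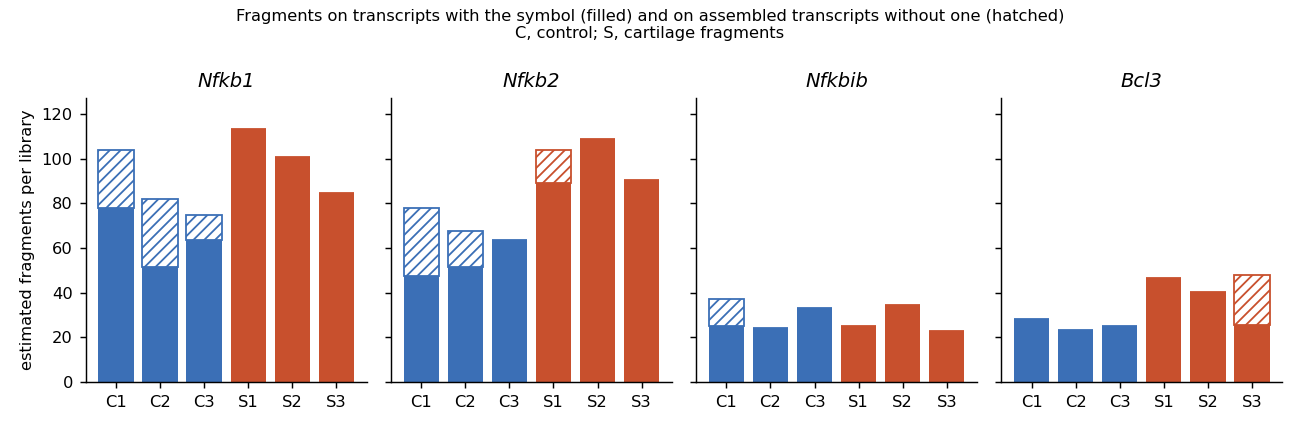
Estimated fragments per library for the 4 genes with assembled transcripts, in controls (C1 to C3, blue) and stimulated macrophages (S1 to S3, orange). Filled bars are transcripts that carry the symbol, and hatched bars are assembled transcripts without one, which lie in the 3 controls at Nfkb1, in 2 controls and 1 stimulated library at Nfkb2, in control 1 at Nfkbib and in stimulated 3 at Bcl3.

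**Figure D3:**
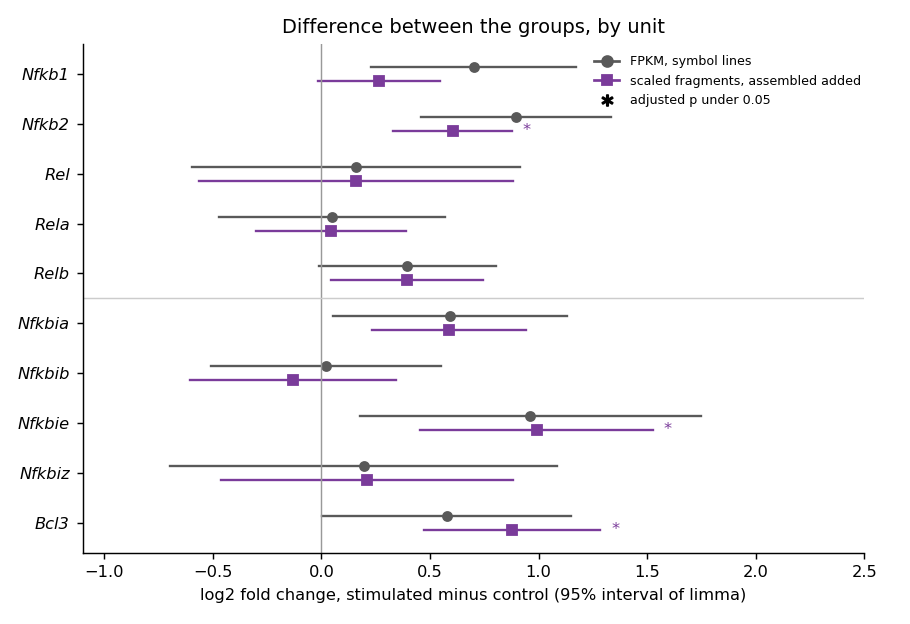
Log2 fold change of each gene, stimulated minus control, with the 95% interval of limma. Grey circles are FPKM of the symbol lines and purple squares are scaled fragments with assembled transcripts added, and an asterisk marks an adjusted p under 0.05, which Nfkb2 (0.60), Nfkbie (0.99) and Bcl3 (0.88) reached in scaled fragments.

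Subunits and IkB genes were set side by side. The IkB genes include the nuclear Bcl3 and Nfkbiz, and Nfkb2, whose precursor also inhibits, counts as a subunit. A ratio of both sums is thus not one of inhibitors to their targets. Nfkbid, whose direction differed between the measures, is in neither sum. By the symbol lines all 10 genes had a positive log2 difference, as did 5394 of the 10348 tested genes. The median difference was 0.40 over the subunits, 0.58 over the IkB genes and 0.02 over all tested genes. In scaled fragments with assembled transcripts added, these medians were 0.27, 0.59 and -0.00021, and 9 of the 10 were positive, Nfkbib being the exception. Without overlap between the groups, 5 of the 10 lay above by the symbol lines, where 8.74% of all genes did, and 4 of the 10 by scaled fragments, where 9.22% did.

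With assembled transcripts added, the 5 subunits summed to 148, 125 and 130 FPKM in controls and 171, 174 and 157 FPKM in stimulated macrophages, 1.25 times the control mean. The 5 IkB genes summed to 155, 137 and 128 FPKM and 212, 210 and 172 FPKM, 1.42 times the control mean. Neither sum overlapped between the groups. The ratio of IkB to subunit FPKM was 1.04, 1.10 and 0.983 in controls and 1.24, 1.20 and 1.09 in stimulated cells. Stimulated 3 lay just below control 2, so that the ratio did overlap.

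By the symbol lines the same ratio was 1.03, 1.28 and 1.05 in controls and 1.29, 1.20 and 0.924 in stimulated macrophages, and the mean ratio of the groups was 1.02. Without Nfkbia, the largest single term, the ratio with assembled transcripts ranged from 0.481 to 0.622 in controls and from 0.571 to 0.625 after stimulation. For any such single value, an exact permutation test of 3 against 3 libraries cannot give a two-sided p below 0.1, so no test was made of these sums and ratios.

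Within the subunits, the share held by Nfkb2 differed between the groups. With assembled transcripts added it made up 22.3%, 24.7% and 23.1% of subunit FPKM in controls and 28.7%, 30.5% and 29.0% in stimulated macrophages, without overlap. By the symbol lines the shares were also apart, at 17.0% to 24.7% and 25.6% to 30.5%. The share of Nfkb1 was 22.6% to 23.4% in controls and 19.7% to 22.4% after stimulation with assembled transcripts added, whereas by the symbol lines it ranged from 16.4% to 20.0% and from 19.7% to 23.4%. The direction for the Nfkb1 share thus turned with the measure.

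The ratio of Nfkb2 to Nfkb1, the genes of the 2 precursors, was 0.969, 1.10 and 0.985 in controls and 1.28, 1.48 and 1.47 in stimulated cells with assembled transcripts added. It did not overlap there, but by the symbol lines it did, at 0.849 to 1.37 against 1.09 to 1.48. The ratio of Nfkb2 to Rela was apart by both measures, at 0.788 to 1.13 against 1.28 to 1.58 with assembled transcripts added. The ratio of Nfkbia to Rela, inhibitor to its main target, was 1.48, 2.83 and 1.44 in controls and 3.43, 2.66 and 2.06 in stimulated macrophages, and overlapped.

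**Figure D4:**
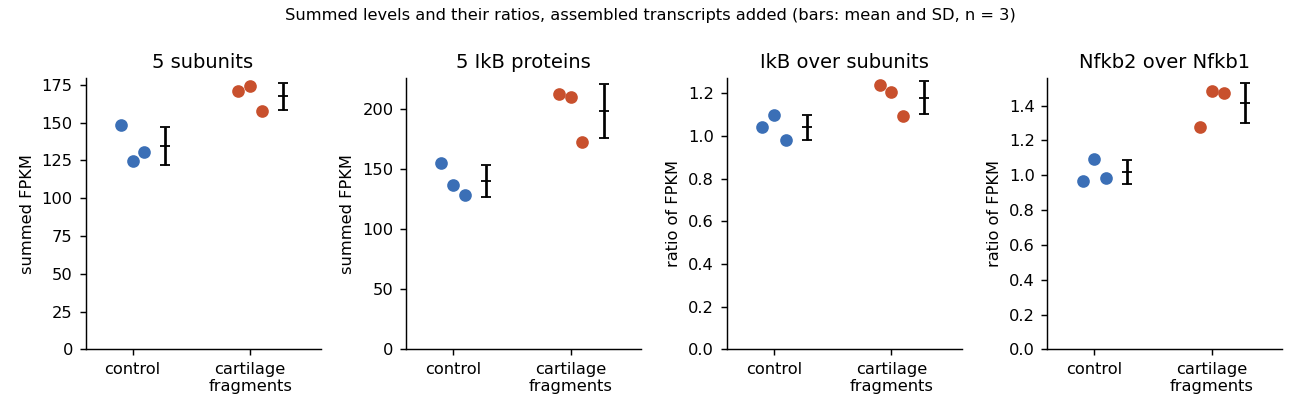
Summed FPKM of the 5 subunits and of the 5 IkB genes, the ratio of both sums, and the ratio of Nfkb2 to Nfkb1, with assembled transcripts added. Points are libraries, and bars beside them show mean and SD (n = 3). Both sums and the Nfkb2 to Nfkb1 ratio lie higher in stimulated macrophages without overlap, and the ratio of IkB to subunits overlaps.

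Ordered by mean FPKM with assembled transcripts added, the controls ran from Nfkbia (63.9 FPKM) through Nfkbib (38.3), Rela (35.2), Nfkb2 (31.3), Nfkb1 (31.0), Relb (30.7), Bcl3 (20.7) and Nfkbie (11.6) to Rel (6.18) and Nfkbiz (5.44). Nfkbia stood apart from its neighbour, the 5 genes from Nfkbib to Relb overlapped each with the next, and Rel and Nfkbiz overlapped. In stimulated macrophages the order was Nfkbia (96.9 FPKM), Nfkb2 (49.3), Bcl3 (40.5), Relb (40.4), Rela (36.1), Nfkb1 (35.1), Nfkbib (31.4), Nfkbie (22.7), Rel (6.84) and Nfkbiz (6.58). Nfkb2 moved from the fourth place to the second and Bcl3 from the seventh to the third. There all neighbours from Nfkb2 to Nfkbie overlapped. By the symbol lines Nfkb2 stood at place 5 in controls and place 2 in stimulated macrophages, and Bcl3 at places 7 and 6.

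The rest of the pathway was followed in lists that were not picked by these values, although results of these data were known when they were made. In scaled fragments with assembled transcripts added, 1 of the 11 kinase genes was called higher and none lower. It was Ikbke, which encodes an IkB kinase related to Tbk1, with 94.9, 96.2 and 92.2 scaled fragments in controls and 158, 180 and 129 in stimulated macrophages (log2 difference 0.71 ± 0.14, limma adjusted p = 0.00259). The largest differences among the others were those of Tbk1 (-0.31, limma adjusted p = 0.220), Map3k7 (0.29, 0.560), Tab3 (-0.28, 0.884) and Ikbkb (-0.28, 0.429). At Ikbkb and Tbk1 all 3 stimulated libraries lay below the controls, as they did at 765 of all 10389 tested genes. In both FPKM measures Ikbkb also lay below, whereas the groups of Tbk1 overlapped (-0.09 with assembled transcripts added, limma adjusted p = 0.933). The median over the kinases was 0.00075.

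Of the 13 adaptors and ubiquitin ligases, 1 was called higher and none lower. Birc3, a ubiquitin ligase of the TNF receptor complex, gave 67.6, 105 and 67.1 scaled fragments in controls and 146, 111 and 147 after stimulation (log2 difference 0.77 ± 0.17, limma adjusted p = 0.0158). Malt1, a paracaspase that activates the pathway, had a log2 difference of 0.66 with an adjusted p of 0.214.

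Of the 11 negative regulators, 3 were called higher and none lower. Tnfaip3, which encodes the deubiquitinase A20, gave 68.9, 73.4 and 55.6 scaled fragments in controls and 110, 120 and 128 in stimulated macrophages (log2 difference 0.86 ± 0.15, limma adjusted p = 0.00112). Tnip1, an A20-binding protein, differed by 0.46 ± 0.12 (adjusted p = 0.0311) and N4bp1, an inhibitor of NF-kB signalling, by 0.62 ± 0.13 (adjusted p = 0.00586). The median over this list was 0.43, with values up to 0.98 for Tnip3 (adjusted p = 0.0816). Nfkbid was not called in any of the 3 fits. Its log2 difference was 2.48 by the symbol lines (limma adjusted p = 0.798) and -0.39 in scaled fragments (0.527), and the groups overlapped in both. In FPKM with assembled transcripts added it was -0.61 (0.300). All stimulated libraries lay below the controls there, as at 716 of 10389 tested genes.

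Of 28 NF-kB target genes, 23 were tested and 7 were called higher, with none lower. They were the cytokines Tnf (log2 difference 1.70 ± 0.26) and Il1b (2.60 ± 0.51), the chemokine Cxcl2 (2.75 ± 0.51), the adhesion molecule Icam1 (0.70 ± 0.13), the mitochondrial dismutase Sod2 (1.34 ± 0.12), the acute phase protein Saa3 (3.04 ± 0.13) and the protease Mmp9 (1.44 ± 0.27). Tnf lay at 18.2, 18.7 and 20.3 scaled fragments in controls and at 81.7, 75.5 and 38.6 in stimulated macrophages. Il1b and Cxcl2 rested on few fragments, with at most 5.41 scaled fragments in any control. The study, by its own processing and threshold, reports no upregulation of IL-1β with cartilage fragments, which differs from the call of Il1b here. Tnf, Saa3, Sod2, Mmp9, Icam1 and Birc3 also stand in gene lists that the study drew from these libraries, so their direction is not independent. The same holds for Ikbke, N4bp1 and Tnip3, and for Tbk1 in a list of lower genes.

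By the symbol lines, no kinase, adaptor or negative regulator was called, and Il1b (2.60, limma adjusted p = 0.0163) and Saa3 (3.25, adjusted p = 0.0105) were the target genes called higher. With assembled transcripts added to the FPKM, again no kinase, adaptor or negative regulator was called. The target genes called higher there were Il1b (2.60, limma adjusted p = 0.00283), Ccl5 (2.04, 0.0305) and Saa3 (3.07, 0.000166). Of these 3 fits, the calls in the other lists thus appeared only in scaled fragments with assembled transcripts added. Assembled transcripts took much of the signal of several of these genes. By its symbol lines Tnfaip3 read 16.5, 17.4 and 13.5 FPKM in controls and 9.08, 14.8 and 18.8 FPKM after stimulation (log2 difference -0.20). Birc3 read 25.9, 0 and 25.8 FPKM in controls and 0, 0 and 10.3 FPKM after stimulation (-3.11). With assembled transcripts added the FPKM differences were 0.88 and 0.72, so the direction at both genes turned with the measure. Tnip1 read 13.1, 0 and 0 FPKM in controls by its symbol lines and 47.1, 51.5 and 52.2 FPKM with assembled transcripts added. Ripk1, the kinase of the TNF receptor complex, was listed at 0 in 5 of the 6 libraries by its symbol and at 22.7 to 25.6 FPKM in all 6 with them.

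**Figure D5:**
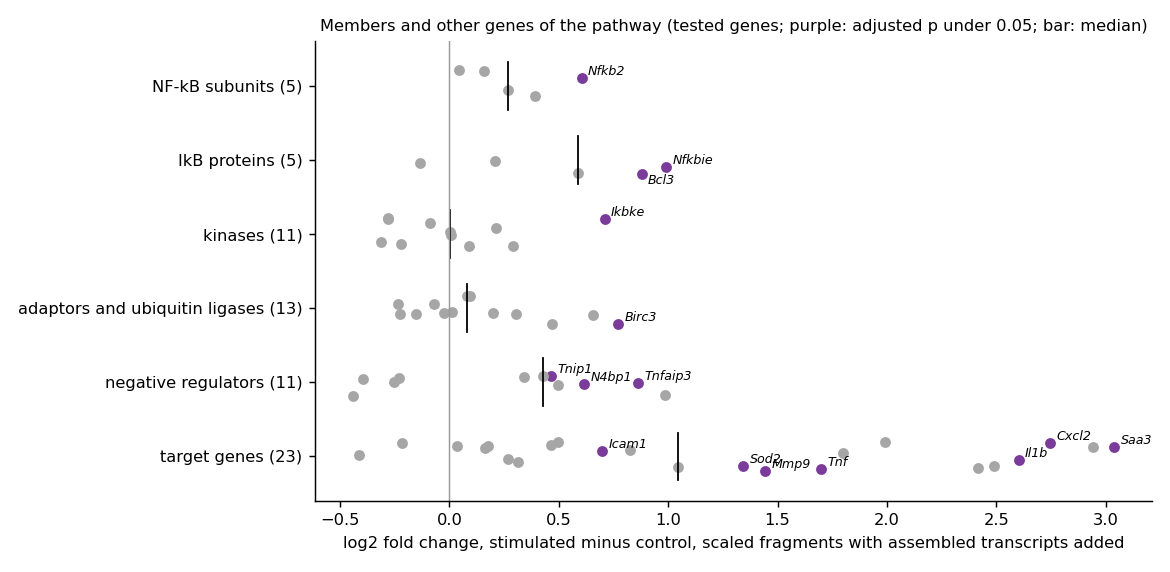
Log2 fold change, stimulated minus control, in scaled fragments with assembled transcripts added, for the tested genes of each list, whose number is in parentheses. Purple points are genes with a limma adjusted p under 0.05, and black bars are medians, which are 0.27 for the subunits, 0.59 for the IkB genes and 1.05 for the target genes.

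Among 5108 genes that averaged 10 FPKM or more, the log2 profiles most like Nfkbia over the 6 libraries were those of 1700020I14Rik (Pearson r = 0.992), Spcs2 (0.986), Atp5h (0.984), Rpl19 (0.982) and Sdc1 (0.973). With assembled transcripts added, Ptpn7 (0.986) took the place of 1700020I14Rik and the other 4 were the same. For Bcl3 the nearest were Ogdh (0.985), Fam102b (0.978), Mafg (0.975), Dera (0.974) and Rpl7 (0.971). With assembled transcripts added they were Med11 (0.996), Prdx6 (0.996), Romo1 (0.993), Itga4 (0.992) and Ctsc (0.987), none of which was in the first set. These are descriptions over 6 points that share their libraries and were picked as the highest of all genes compared.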

How the data were processed

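RNA of 6 cultures, 3 control and 3 stimulated, was sequenced by the authors from TruSeq Stranded mRNA libraries as paired-end reads of 100 bases. Reads were aligned to mm10, and the submitters' processing notes name TopHat, Bowtie, Cufflinks and Cuffdiff, with versions not given in the sources used here. The deposited FPKM are Cufflinks values per transcript, and the deposited coverage is the read depth beside each of them. Whether strand was used in the assignment is not given in the sources used here. The methods state far more reads than the coverage implies, and fragment numbers rest on the coverage alone.

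FPKM were summed per symbol, 0.1 was added and log2 taken, so fold changes of low genes are understated. Symbols whose mean reached 1 FPKM entered the main comparison, a two-sided limma fit (version 3.58.1 under R 4.3.3) by lmFit and eBayes with trend and robust, at a threshold of 0.05. Fragments were coverage times length, less an offset of 205 to 223 bases chosen so that low values were whole, over 100 bases. Between 94.9% and 95.6% of single-transcript values of up to 8 fragments then came within 0.1 of a whole number. Scaled fragments are these at a library total of 1000000, with 0.1 added before log2. Intervals on fragments cover counting error only. Starts are 1 above the deposited ones, since 56.6% of 33430 lay 1 base before the reference. Tables used pandas 2.3.3 and scipy 1.17.1, and figures matplotlib 3.10.9, in Python 3.11.15.

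Members, gene lists and tests were chosen with earlier results of these data known. All 10 members are named. Of the other lists, called genes and at most 4 others with the largest difference are. Nfkbid is named as a further gene of the family, and Ripk1 was named after its values were seen. Alternatives changed the pseudocount, filter, scaling, variance moderation, weights, replicate block, transcript status and unit, or left out a library. Adding assembled transcripts of the same Cufflinks gene was chosen after the values were seen. Replicates 1 to 3 recur in both groups, and no source pairs them.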

Additional observations from a re-analysis of the deposited data

Results flagged for a closer look

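At Bcl3, an assembled transcript without a symbol held 26.6 FPKM in stimulated replicate 3 and was listed in none of the 3 controls. It is signal that the symbol lines leave out, and the library was lowest of its group without it (22.5 FPKM) and highest with it (49.1 FPKM).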

How the results depend on the processing

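By the symbol lines, none of the 10 genes was called under any of 18 other settings. Using reference transcripts alone gave the same values by construction, since assembled ones carry no symbol. With the 2 fits that add assembled transcripts, 185 of 200 gene values over these settings kept their sign and their side of the threshold. The 3 that passed it were Bcl3, Nfkb2 and Nfkbie in scaled fragments with assembled transcripts added. Over the fits without 1 library, the log2 difference ranged from -0.068 to 0.33 for Rel (lowest without control 1), -0.13 to 0.19 for Rela (below 0 without control 2 and, at -0.055, without stimulated 2), -0.025 to 0.54 for Nfkbiz (lowest without stimulated 2) and -0.12 to 0.19 for Nfkbib (below 0 without stimulated 2 and, at -0.079 and -0.044, without control 2 and control 1). Nfkbib also turned with equal totals (-0.014), size factors (-0.00010), quantiles (-0.017), and with assembled transcripts added (-0.25 in FPKM, -0.13 in fragments). Of all genes, 15 were higher and 4 lower, against 8 and 0 with a pseudocount of 0.01 and 0 and 0 with the replicate block. Lower calls numbered 1 at 5 FPKM, 10 with plain eBayes, 2 with status OK and 1 in scaled fragments of the symbol lines. With assembled transcripts added, 32 were higher in FPKM, and 140 higher and 76 lower in scaled fragments. Leaving out 1 library gave 0 to 18 higher and 0 to 3 lower. The causes were not tested. Same-numbered libraries correlated at -0.005 to 0.028, and 3 of 6 libraries correlated best with their own number, so the numbers were not taken as pairs. With the block in scaled fragments with assembled transcripts added, adjusted p was 0.0256 for Bcl3, 0.0211 for Nfkb2, 0.0308 for Nfkbie and 0.0306 for Nfkbia, a call gained against 0.0867 without the block.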
